A study of Mus musculus with 36 samples.

Results

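The interferon-inducible GTPases described here are 9 genes, Gbp2, Gbp3, Gbp6, Gbp7, Gbp9, Irgm1, Irgm2, Igtp and Iigp1, picked by symbol from the 24421 gene symbols of the tables. Their RNA was followed in hippocampal tissue of mice from 6 groups, with 6 sequencing libraries a group (3 from females, 3 from males). In the C57BL/6 arm the groups were old mice given a nanoligomer (18 months), old mice without it (18 months) and young mice (8 months). In the transgenic arm they were APP/PS1 mice given the nanoligomer, APP/PS1 mice marked as control for treatment and littermates without the transgenes, all at 4 months. APP/PS1 mice carry transgenes for the amyloid precursor protein and presenilin 1 and form amyloid plaques. The nanoligomer is an antisense-type agent, and the title of the series names NF-κB and NLRP3 as what is lowered. The sources used here do not give its dose, duration or sequence, nor the transgene promoter or the APP/PS1 line. Age and arm go together, so a difference between the arms cannot be told apart from strain background, age or cohort.

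Guanylate-binding proteins (the Gbp genes) and immunity-related GTPases (Irgm1, Irgm2, Igtp and Iigp1) are large GTP-hydrolysing proteins that cells make when interferon reaches them. They gather on the vacuoles of bacteria and parasites inside a cell and break or mark these membranes. Interferon gamma is their classic inducer: its receptor and the kinases Jak1 and Jak2 signal to the gamma-activated site (GAS) of target promoters and raise Irf1, a factor that binds interferon-stimulated response elements (ISRE). Type I interferons act on the ISRE through a complex that holds Irf9, so the GTPase genes answer to both kinds. Within the family Irgm1, Irgm2 and Igtp (also called Irgm3) sit on the cell's own membranes and hold effectors such as Iigp1 (Irga6) inactive there, while Gbp2 and its relatives are effectors. In a healthy brain these genes are expressed at low levels, and microglia, astrocytes and endothelial cells can all induce them.

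Since these genes are interferon targets, the bases just upstream of their starts are shown for the 6 members present in the RefSeq promoter table (GRCm38.p6). Capitals mark matches to the ISRE pattern (GAAA, any 2 bases, GAAA) or the GAS pattern (TTC, any 3 bases, GAA), searched on both strands in the 250 bases before each start. The stretches are chr3:142530216-142530335 (plus strand) for Gbp7, chr3:142559924-142560025 (plus) for the first of the 2 Gbp3 starts, chr3:142620543-142620613 (plus) for Gbp2, chr11:48871428-48871457 (minus) for Irgm1, chr11:58199436-58199555 (plus) for Igtp and chr11:58214857-58214976 (plus) for Irgm2. The Gbp2, Gbp3 and Irgm1 stretches are shorter because annotated exons begin near or within them, and the 30 bases of Irgm1 lie in an exon.
Gbp7: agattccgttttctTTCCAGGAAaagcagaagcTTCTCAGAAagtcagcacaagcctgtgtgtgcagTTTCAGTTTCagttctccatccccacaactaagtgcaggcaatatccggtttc
Gbp3: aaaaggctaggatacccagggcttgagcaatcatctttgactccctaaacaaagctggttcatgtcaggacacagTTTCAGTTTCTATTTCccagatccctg
Gbp2: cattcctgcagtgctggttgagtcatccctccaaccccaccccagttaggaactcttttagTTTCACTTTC
Irgm1: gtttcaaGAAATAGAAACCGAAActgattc
Igtp: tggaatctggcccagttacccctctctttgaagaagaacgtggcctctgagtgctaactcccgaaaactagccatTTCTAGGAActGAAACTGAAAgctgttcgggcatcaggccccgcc
Irgm2: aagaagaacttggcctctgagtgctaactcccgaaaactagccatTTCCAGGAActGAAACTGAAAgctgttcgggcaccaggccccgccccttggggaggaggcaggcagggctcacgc

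An ISRE match stood 24 to 64 bases before the start of all 6 members in the table, with 2 overlapping matches in Gbp3 and 2 in Irgm1. Over the 32851 starts in the table, 2.98% had an ISRE match in the same window and 7.02% a GAS match. In the Gbp genes the ISRE reads on the opposite strand to the gene, and in Irgm1, Igtp and Irgm2 on the same strand. A GAS match was found in Gbp7 (2 matches, 106 and 87 bases before the start), Igtp (45 bases) and Irgm2 (75 bases). In Igtp and Irgm2 it lies 2 bases ahead of the ISRE, and the 250 bases upstream of these neighbours share an identical run of 55 bases. The second Gbp3 start had neither pattern in its window. A match of letters is a description and says nothing of whether a factor binds there.

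**Figure D1:**
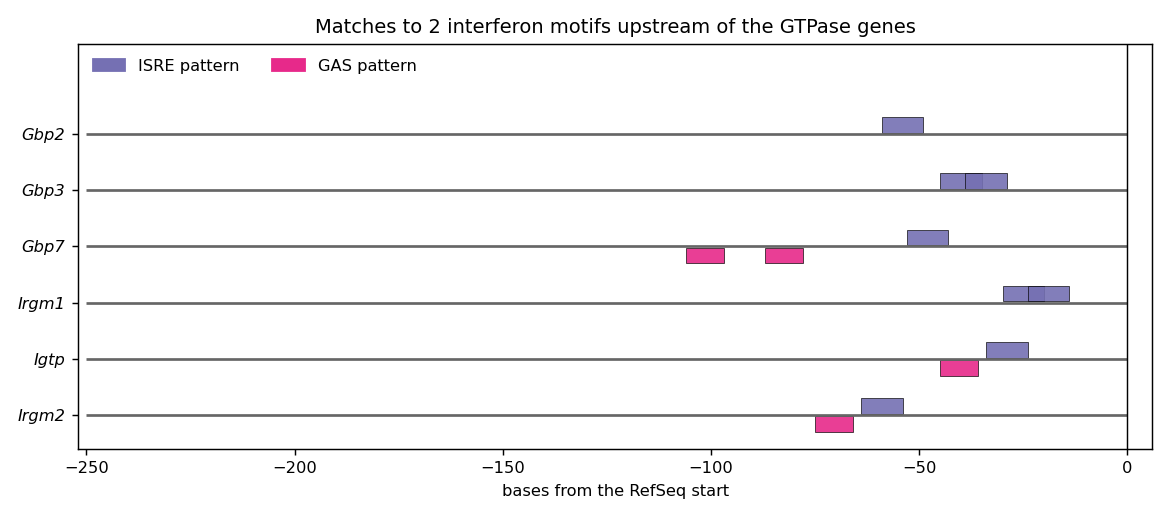
Positions of ISRE (upper boxes) and GAS (lower boxes) matches, in bases from the RefSeq start, in the 250 bases upstream of 6 members, with the first start shown for Gbp3. The ISRE boxes lie 24 to 64 bases before the start in all 6 rows, and GAS boxes appear in Gbp7, Igtp and Irgm2.

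The genes lie in clusters (GENCODE annotation of GRCm38). Gbp7, Gbp3 and Gbp2 follow each other on the plus strand of chromosome 3, at chr3:142530342-142550149, chr3:142560026-142573209 and chr3:142620602-142638008. Gbp9 and Gbp6 lie on the minus strand of chromosome 5, at chr5:105077630-105139539 and chr5:105270702-105293698. Irgm1 is at chr11:48861968-48871683 on the minus strand, and Igtp (chr11:58199556-58207591) and Irgm2 (chr11:58199618-58222782) share the plus strand of the same chromosome, with 162 exon bases in common. Iigp1 is at chr18:60376027-60392634 on the plus strand. All 9 are protein-coding. The families are made of similar copies, so reads can be split between them: the longest Gbp6 transcript matched Gbp10 at 98.5% of 1380 aligned bases, Gbp9 matched Gbp8 at 87.3% of 3405, Igtp matched Irgm2 at 89.9% of 542, and Iigp1 matched Gm4951 at 86.5% of 1280. Gbp6 also shares 1726 exon bases with the gene model Gm43302. The sources used here do not say how such reads were counted, so the levels of these genes are uncertain to that extent.

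The 35 libraries used had 27.6 M to 46.3 M reads each (M, megareads), against 0.913 M reads in APP/PS1 nanoligomer female 3, which was left out of the comparisons. Hippocampal neuron markers were present in every library used, with a summed level of 2225 to 7167 CPM (reads of a gene scaled to the depth of its library). The lowest sum was in APP/PS1 female 1. Camk2a alone, at 1697 to 6340 CPM, held most of the sum, so low levels of other markers hardly show in it. Among old libraries other than old male 1, C1ql2 had 5.45 CPM at the lowest and 122 CPM at the median. Fibcd1 had 9.66 and 147 CPM there. Choroid plexus markers, from a neighbouring tissue, ranged from 13.2 to 4128 CPM within the young group alone. 3 libraries stood apart on interferon-related or microglial genes: old male 1, old female 2 and APP/PS1 female 3. For each of the 4 comparisons between groups, the members' median is given with and without the first or the last, whichever it holds. Nothing in the labels says whether libraries of a group came from separate litters or preparations, so p-values measure the spread between these libraries. In bulk tissue, fewer cells of a type and less RNA per cell cannot be told apart.

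All 9 genes were transcribed at low levels. In CPM per kilobase of exon, the young medians were 1.79 for Igtp, 1.31 for Gbp2, 1.29 for Gbp3, 1.05 for Irgm2, 1.01 for Irgm1, 0.942 for Gbp7, 0.676 for Gbp9, 0.322 for Gbp6 and 0.209 for Iigp1. The old group had the highest median of the 6 groups for 9 of 9 members. The lowest group was treated APP/PS1 for 6 members, young for 2 and littermate for 1. Between neighbours in the order of group medians the ranges overlapped in 44 of 45 pairs. The exception was Irgm1, whose lowest treated old library (7.42 CPM) lay above the highest treated APP/PS1 library (6.98 CPM). These groups are of different arms. The overlaps were counted for the members alone and not over all genes, so they are a description.

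**Figure D2:**
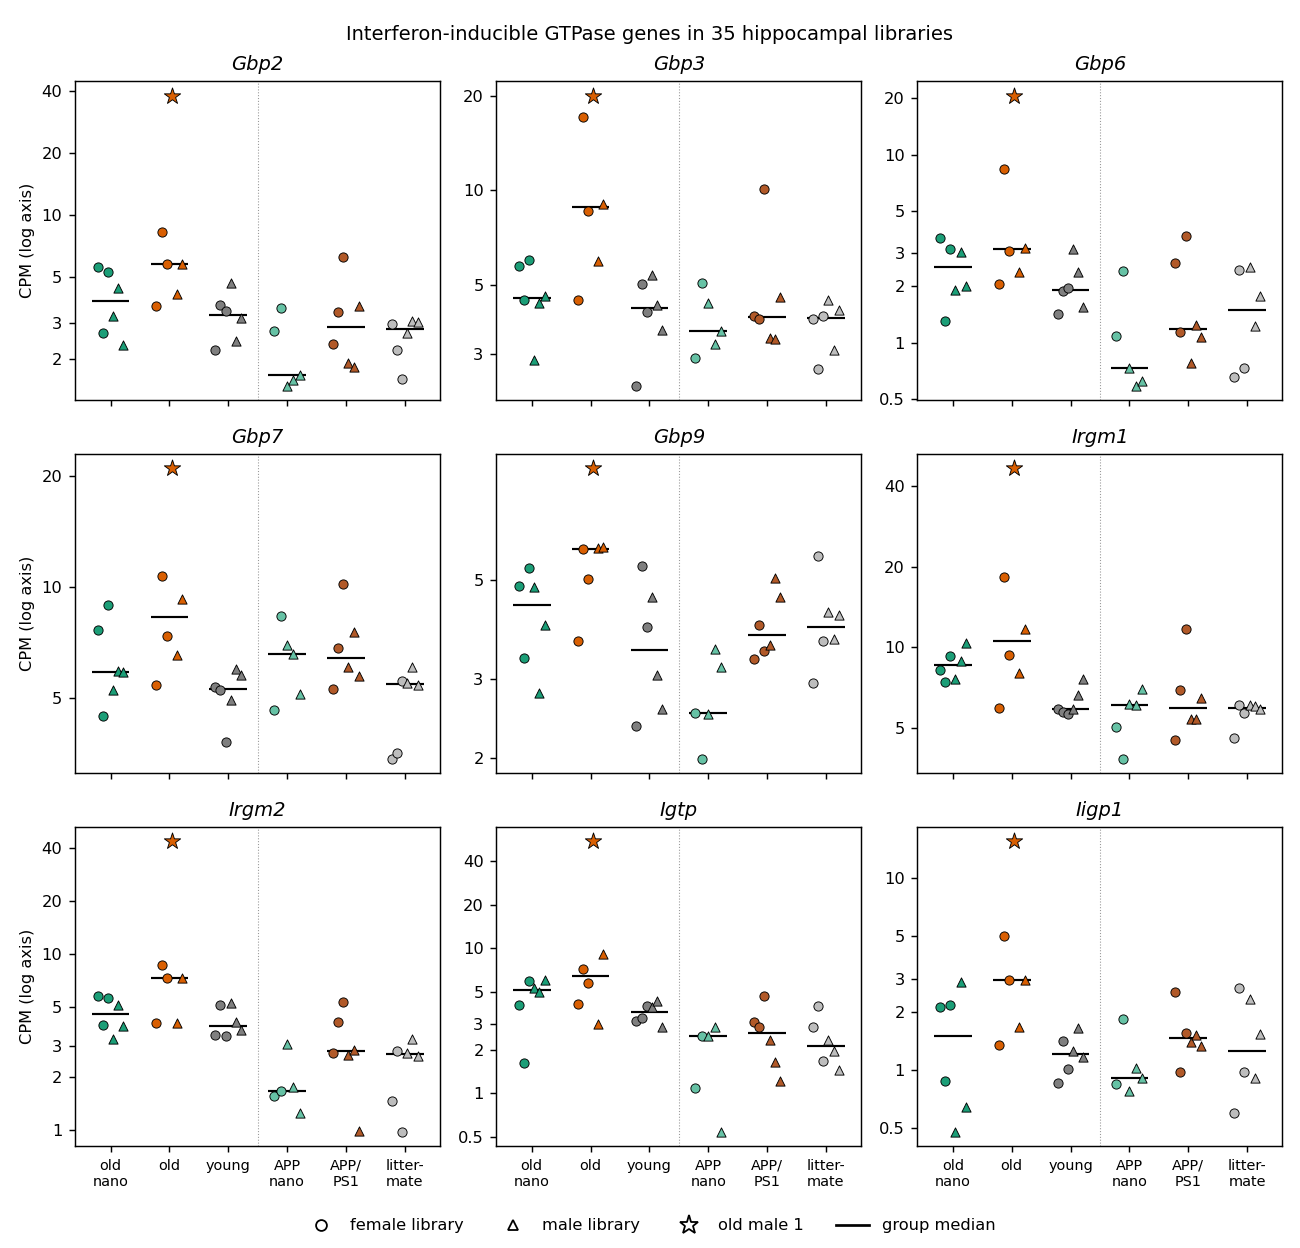
Level of each member in CPM (log axis) in 35 libraries, by group, with females as circles, males as triangles, old male 1 as a star and the group median as a line. Old male 1 is the highest library in all 9 panels, for instance 55.0 CPM for Igtp, where the next library has 9.20 CPM.

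The first comparison asks what differs between old and young hippocampus. All 9 GTPase genes had higher fitted levels in old than in young mice, where 48.6% of the 16626 genes tested did, and none passed the limma test after Benjamini-Hochberg adjustment over all genes (6 genes, 0.0361%, did). The fitted log2 differences ran from 0.71 for Gbp9 to 1.5 for Iigp1, with a median of 1.18 against -0.00 over all genes. All 9 reached an unadjusted p under 0.05 in the higher direction, as did 3.37% of genes. The groups overlapped for 9 of 9 members, while 0.403% of genes had every old library above every young one. Old female 1 was the lowest old library for 7 members and old male 2 for 2.

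Among the effectors, Gbp3 had normalised counts of 180 at the lowest, 359 at the median and 800 at the highest in old mice, against 96.8, 172 and 202 in young mice. Only old female 1 lay within the young range. The log2 difference was 1.25 ± 0.34 (SE, n = 6 each; limma, adjusted p = 0.429). Gbp2, which acts on the vacuoles of Toxoplasma in mouse cells, had 146, 234 and 1514 in old mice, against 89.7, 133 and 175 in young mice (log2 difference 1.22 ± 0.45, limma adjusted p = 0.691). Its highest value, in old male 1, was far from the next, 329 in old female 2. Gbp7 had 218, 337 and 839 in old mice, against 153, 213 and 247 in young mice, a log2 difference of 0.83 ± 0.25 (limma adjusted p = 0.581). Gbp6 and Gbp9 of the chromosome 5 cluster had log2 differences of 1.19 ± 0.48 and 0.71 ± 0.23 (limma adjusted p = 0.759 and 0.645).

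Iigp1, the effector among the immunity-related GTPases, had normalised counts of 54.4, 119 and 623 in old mice, against 34.7, 47.3 and 68.6 in young mice. The log2 difference of 1.5 ± 0.47 (SE, n = 6 each; limma adjusted p = 0.597) was the largest of the 9, and only old female 1 lay within the young range. The regulators showed the same order of groups. Irgm1 had 240, 428 and 1862 in old mice, against 221, 235 and 307 in young mice (log2 difference 1.06 ± 0.37, limma adjusted p = 0.665). Igtp had 125, 260 and 2200 in old mice, against 115, 140 and 180 in young mice (log2 difference 1.18 ± 0.53, limma adjusted p = 0.810). Irgm2 had 163, 295 and 1742 in old mice, against 137, 158 and 203 in young mice (log2 difference 1.03 ± 0.46, limma adjusted p = 0.810). In each regulator the widest gap within the old group was between old male 1 and the rest.

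The count of calls depended on the tool. On reads recovered from the normalised values, edgeR's quasi-likelihood test called 0 members (6 of 16646 genes, 0.0360%), while DESeq2's Wald test called 3: Gbp3 (adjusted p = 0.00697), Iigp1 (adjusted p = 0.0133) and Irgm1 (adjusted p = 0.0438), among 123 of 16587 genes (0.742%). Microglia markers had the same sign, with 12 of 12 positive, 9 at an unadjusted p under 0.05 and a median log2 difference of 0.35 in old over young mice. Their summed level was 540 to 774 CPM in old and 449 to 513 CPM in young libraries. Choroid plexus markers had the opposite sign, with 0 of 9 positive, 4 lower at an unadjusted p under 0.05 and a median log2 difference of -2.10. They summed to 23.0 to 246 CPM in old and 13.2 to 4128 CPM in young libraries. Hippocampal neuron markers were positive for 9 of 10 genes (median 0.28), with 0 at an unadjusted p under 0.05. The part of any of these lists in the GTPase result was not tested. In tests of whether the effect differed between the sexes, limma called 0 members and 0% of genes in each of the 4 comparisons. At an unadjusted p under 0.05 it had 0 members for age (4.39% of genes), 0 for treatment of old mice (4.71%) and 0 for treatment of APP/PS1 mice (4.52%).

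**Figure D3:**
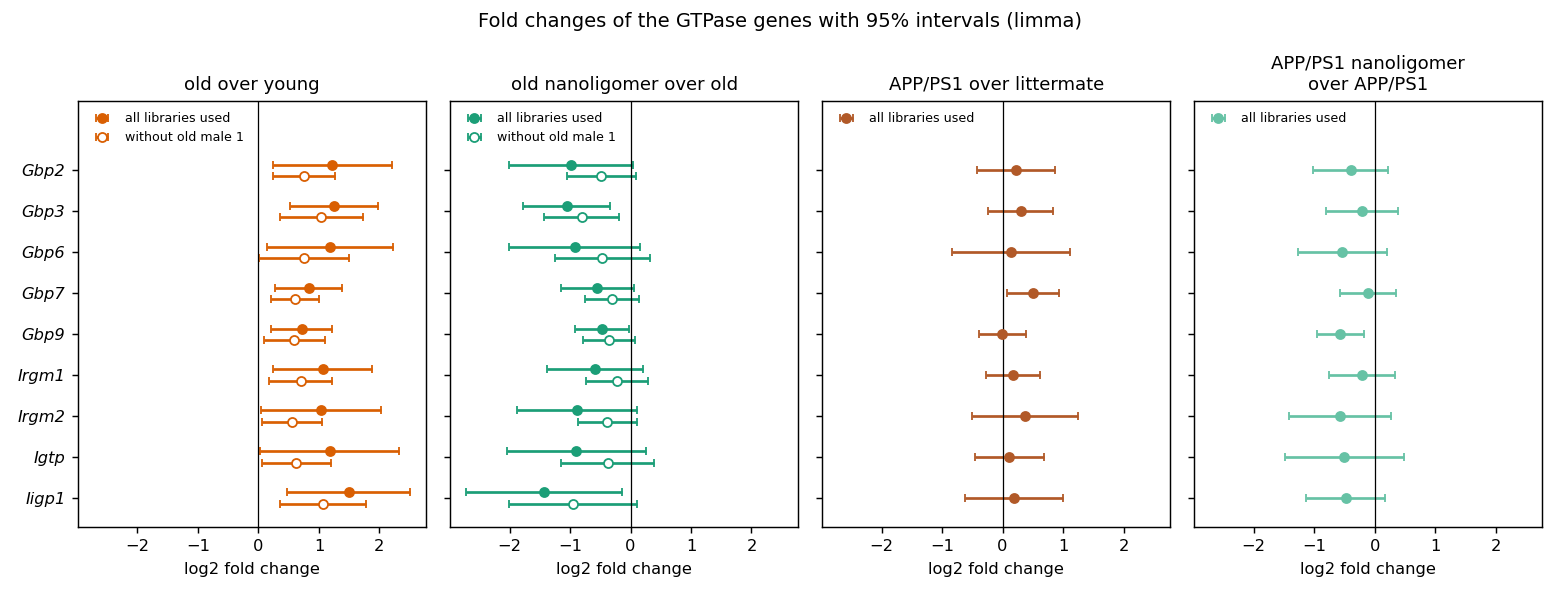
Log2 fold changes of the 9 members with 95% intervals in 4 comparisons, where points right of the vertical line are higher in the first-named group. Filled points use all libraries of the comparison and open points leave out old male 1, where Irgm2 in old over young mice is 0.56 instead of 1.03.

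Old male 1 carried the highest value of the 35 libraries for all 9 members. It exceeded the next library 5.98-fold for Igtp, 5.03-fold for Irgm2, 4.57-fold for Gbp2, 3.12-fold for Iigp1, 2.55-fold for Irgm1 and 2.47-fold for Gbp6. The excess was smaller for Gbp7 (1.96-fold), Gbp9 (1.5-fold) and Gbp3 (1.17-fold), with old female 2 next for Gbp7 and Gbp3. This library was the highest for 2.97% of the 15736 genes with a mean of at least 0.5 CPM, the 8th largest share among libraries. It exceeded the next library more than 2-fold for 18 genes (0.114%), and 6 of these 18 were members. The other 12 were Cd274, H2-Eb1, H2-Ab1, H2-Aa, Cd74, H2-T23, Tap1, Psmb8, Nlrc5, Irf1, Il12rb1 and Mir5107, most of them antigen presentation genes and their regulators.

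The profile of old male 1 differed from that of old female 2, the next highest for most members. Against the median of the other 5 libraries of the group, the 9 members stood at a median of 5.32-fold in old male 1 and 1.46-fold in old female 2. The type I interferon antiviral genes, such as Ifit1, Oasl2 and Rsad2, stood at a median of 1.81-fold in old male 1 and 2.72-fold in old female 2 (11 genes). Over 12 such genes the summed level was 100.2 CPM in old male 1 and 141 CPM in old female 2, the second highest and the highest of the 35 libraries. Nlrc5, which drives class I antigen presentation genes, stood at 7.06-fold and Irf1 at 3.71-fold in old male 1. Genes of T and natural killer cells were mixed. Cd8a and Nkg7 were highest in old male 1, with 32 of 114 and 28 of 69 reads over all 35 libraries. So were Cd3d, Prf1 and Gzma, with 10 of 29, 9 of 29 and 7 of 36 reads. Cd3e and Cd8b1 were second highest, with 23 of 173 and 12 of 65 reads. Gzmb ranked 3, Cd3g 5, Klrd1 10, Cd4 21 and Cd247 27 of 35 there, and Klrb1c and Ncr1 had 0 reads. The summed level of 7.27 CPM was the 8th of 35, and Cd247 alone had 3.18 CPM. Microglia markers in old male 1 summed to 675 CPM, the third highest. Choroid plexus markers stood at a median of 4.61-fold there, with 8 of 9 over 2-fold and a summed level of 246 CPM, the highest of the old group. Whether any of these bears on the GTPase level was not tested. Ifng itself had 0 reads in old male 1, with 15 reads in all libraries, 11 of them in the old group.

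**Figure D4:**
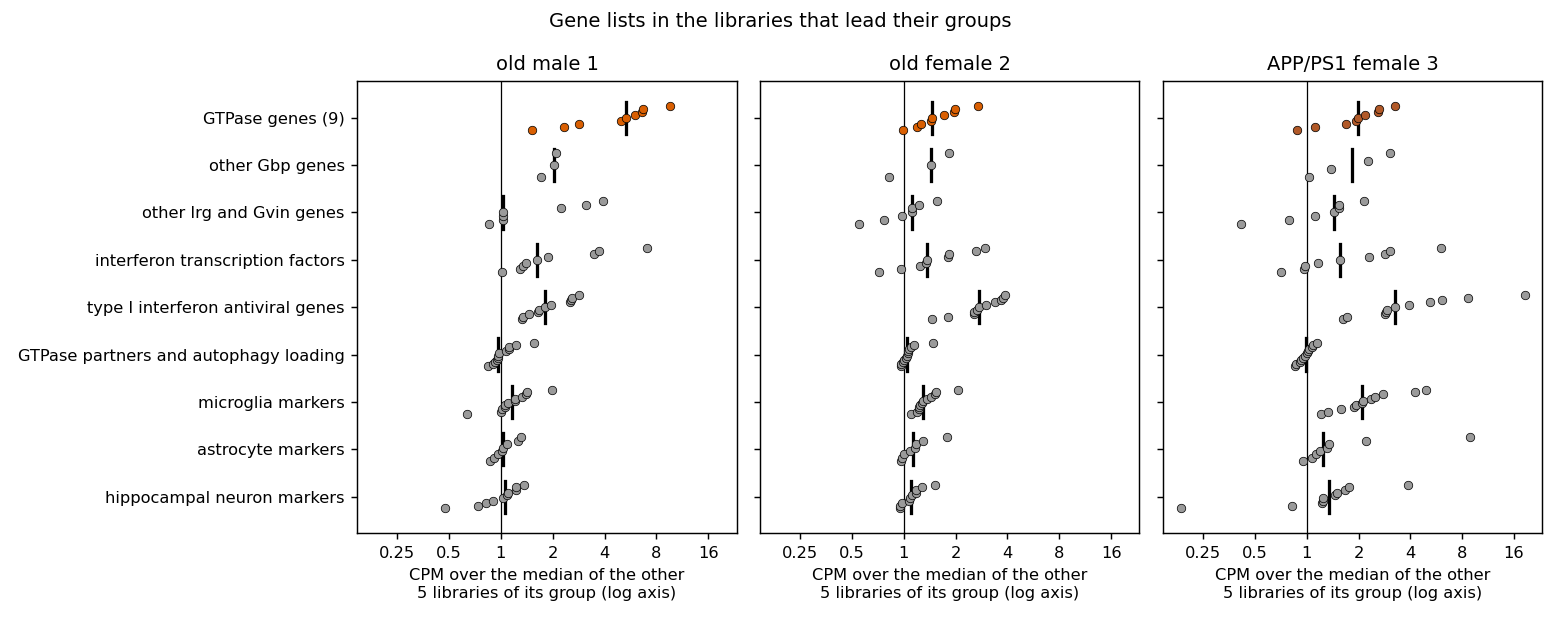
CPM in old male 1, old female 2 and APP/PS1 female 3 over the median of the other 5 libraries of the same group (log axis), per gene, for the 9 members (coloured) and other gene lists (grey), with the list median as a bar. The GTPase median is 5.32 in old male 1, against 1.81 for the antiviral genes, whereas in old female 2 these are 1.46 and 2.72.

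Without old male 1 the age differences kept their sign and were smaller. All 9 members were higher in the remaining 5 old than in the 6 young libraries (49.4% of genes were), all 9 had an unadjusted p under 0.05 (3.14% of genes did, in the higher direction), and the median log2 difference was 0.70. Limma called none (5 of 16622 genes, 0.0301%), and DESeq2 called Gbp3 alone (adjusted p = 0.0497; 112 genes, 0.702%). Gbp3 and Iigp1 had the largest differences, 1.04 ± 0.31 and 1.07 ± 0.32 on the log2 scale (SE; limma adjusted p = 0.576 and 0.579). The value dropped most for Igtp, to 0.62 ± 0.26, for Irgm2, to 0.56 ± 0.22, and for Gbp2, to 0.75 ± 0.23.

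The second comparison asks whether nanoligomer treatment changes these genes in old mice, and it shares the old libraries, old male 1 included, with the first. All 9 members were lower in treated than in untreated old mice (51.0% of the 16517 genes tested were), with a median log2 difference of -0.89. Limma called none of the 9 and no other gene (0 of 16517, 0%). At an unadjusted p under 0.05, limma had 3 members lower (3.60% of genes were), Gbp3, Gbp9 and Iigp1, and 1192 genes in both directions. EdgeR called 0 genes and DESeq2 2 (0.0121%), none of them members. The groups overlapped for 9 of 9 members, while 0.133% of genes had every treated library below every untreated one.

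Gbp3 had normalised counts of 109 at the lowest, 173 at the median and 218 at the highest in treated old mice, against 169, 335 and 748 in untreated old mice. The groups overlapped between 169 and 218. Its log2 difference was -1.05 ± 0.33 (SE, n = 6 each; limma adjusted p = 0.678). Iigp1 had 18.1, 56.3 and 109 in treated old mice, against 50.9, 112 and 582 in untreated old mice (log2 difference -1.43 ± 0.60, limma adjusted p = 0.678). The lowest treated values were 18.1 in male 1 and 24.7 in male 3. Gbp9 had 106, 167 and 193 in treated old mice, against 138, 221 and 332 in untreated old mice (log2 difference -0.48 ± 0.21, limma adjusted p = 0.678). The regulators Irgm1, Irgm2 and Igtp had log2 differences of -0.59 ± 0.37, -0.89 ± 0.46 and -0.89 ± 0.53 (limma adjusted p = 0.714, 0.688 and 0.703). Irgm1 varied least among treated mice, at 281 to 397.

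Without old male 1 the 9 members stayed on the lower side (50.7% of genes did), with a median log2 difference of -0.39. Gbp3, at -0.81 ± 0.29 (limma adjusted p = 0.859), was the 1 member with an unadjusted p under 0.05 in the lower direction (2.59% of genes). The 95% intervals of the other 8 included 0. Irgm1 had the smallest value, -0.22 (95% interval -0.73 to 0.28), and Iigp1 the largest, -0.95 (-2.0 to 0.10). Limma, DESeq2 and their 16505 and 16455 genes gave 0 calls (0%), with 869 genes at an unadjusted limma p under 0.05. With all libraries, microglia markers summed to 500 to 645 CPM in treated and 540 to 774 CPM in untreated old mice. Of these 12 markers 7 were lower, 3 at an unadjusted limma p under 0.05, and without old male 1 these counts were 8 and 0. Hippocampal neuron markers were lower for 8 of 10 genes (median -0.52, and -0.33 without old male 1), with 0 lower and 1 higher at that level. Endothelial markers were lower for 7 of 9 genes (median -0.13) and choroid plexus markers higher for 7 of 9 (0.17). Their part in the treatment result was not tested.

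**Figure D5:**
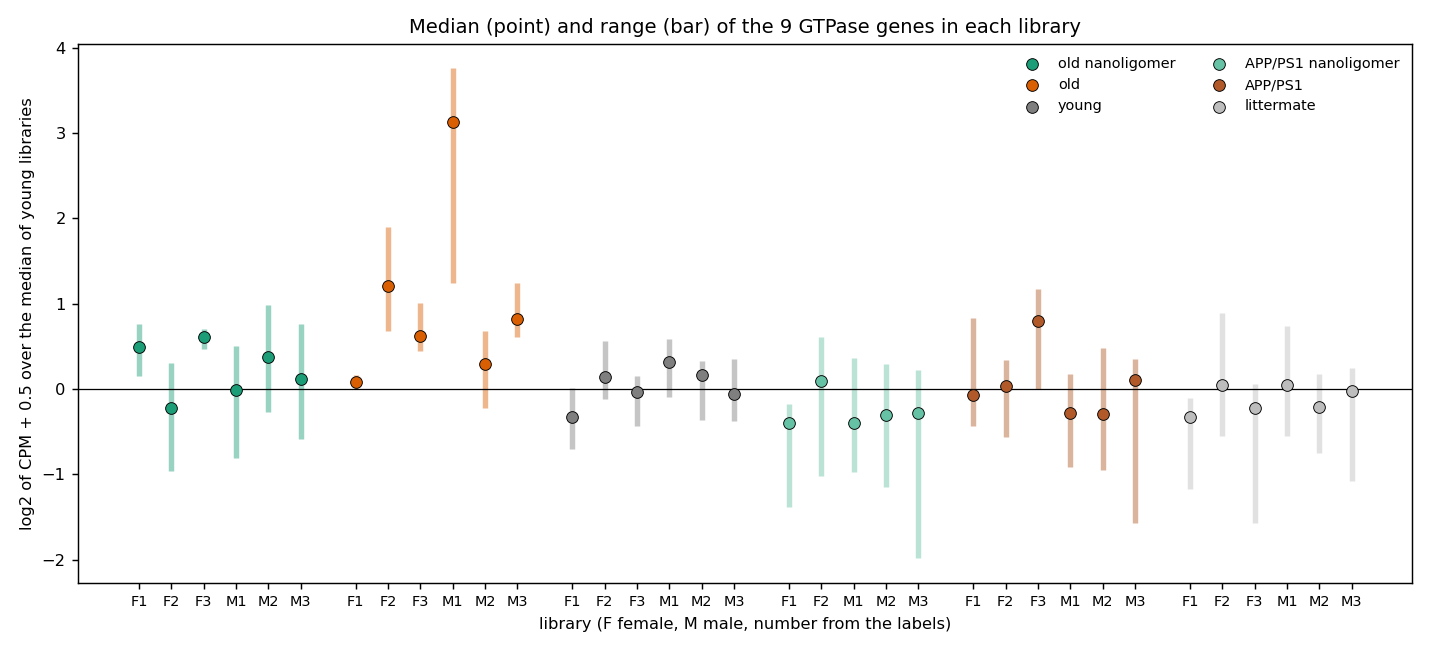
Median (point) and range (bar) of the 9 members in each of 35 libraries, as log2 of CPM + 0.5 over the median of the young libraries, with groups side by side. Old male 1 has a median of 3.13 and old female 2 of 1.21, while treated old libraries lie between -0.22 and 0.61 and young libraries between -0.32 and 0.32.

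By library, the median of the 9 members relative to young mice lay between -0.22 and 0.61 on the log2 scale in treated old mice, between 0.08 and 3.13 in untreated old mice and between -0.32 and 0.32 in young mice. In treated old females 1 and 3 all 9 members exceeded the young median, and in treated old female 2 and male 1 3 of 9 did. In untreated old mice this was 9 of 9 in every library but old male 2, with 8. These library medians of treated old mice overlapped with those of untreated old and of young mice.

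The third comparison asks what the transgenes change at 4 months. Fitted log2 differences of the GTPase genes between APP/PS1 mice and littermates ran from -0.0043 for Gbp9 to 0.50 for Gbp7. In all, 8 of 9 members had positive log2 differences (50.3% of the 16475 genes tested did), the median was 0.18, and none was called by limma (8 genes, 0.0486%), edgeR (8 of 16498, 0.0485%) or DESeq2 (256 of 16098, 1.59%). Gbp7 had the largest difference and the 1 unadjusted p under 0.05 (4.72% of genes, higher), at 0.50 ± 0.20 (SE, n = 6 each; limma adjusted p = 0.405). Its normalised counts were 181, 240 and 368 in APP/PS1 mice, against 122, 200 and 222 in littermates, so 4 of the 6 APP/PS1 libraries lay above every littermate. For 9 of 9 members the groups overlapped, while 0.437% of genes had every APP/PS1 library above every littermate. Choroid plexus markers were positive for 0 of 9 genes, with 4 lower at an unadjusted p under 0.05 and a median log2 difference of -0.92, and summed to 17.8 to 59.4 CPM in APP/PS1 mice, against 27.0 to 593 CPM in littermates. Of the hippocampal neuron markers 8 of 10 were negative and 3 lower at that level (median -0.49), with 2225 to 6831 CPM in APP/PS1 mice, against 6155 to 6763 CPM in littermates. Microglia markers were positive for 9 of 12 genes (median 0.23), with 0 at that level. The part of these markers in the GTPase values was not tested.

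APP/PS1 female 3 was the highest library of its group for 7 of 9 members. It had 365 normalised counts of Gbp3, where the other APP/PS1 libraries had at most 170 and littermates 100.1 to 164. Microglia markers summed to 1157 CPM in this library, the highest of the 35, and antiviral genes to 95.6 CPM, the third highest. Their part in its GTPase level was not tested. Without it the median log2 difference was 0.02, from -0.12 for Gbp6 to 0.35 for Gbp7, and no member had an unadjusted p under 0.05. Without APP/PS1 female 1, the library with the lowest summed level of hippocampal neuron markers, the median was 0.31.

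The transgene effect in males minus that in females was -1.81 ± 0.78 for Gbp6 and -1.78 ± 0.67 for Irgm2 on the log2 scale (SE; limma adjusted p = 0.847 for each). These 2 members reached an unadjusted p under 0.05, as did 5.10% of genes. Irgm2 had 93.8, 153 and 191 normalised counts in APP/PS1 females, against 51.7, 104 and 35.5 in littermate females. In males it had 98.9, 108 and 36.5 in APP/PS1 mice, against 101, 119 and 95.8 in littermates.

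The fourth comparison sets treated against untreated APP/PS1 mice, with 5 and 6 libraries, and shares the untreated libraries with the third. All 9 members were lower in treated mice (50.6% of the 16124 genes tested were), with a median log2 difference of -0.48. None was called by limma (0 genes, 0%), edgeR (0 genes, 0%) or DESeq2 (7 genes, 0.0427%, none a member), and 477 genes had an unadjusted limma p under 0.05. Gbp9 was the 1 member among these (1.51% of genes, lower), at -0.57 ± 0.18 (SE; limma adjusted p = 0.997). It had 69.8, 53.8, 72.0, 102 and 89.7 normalised counts in the treated libraries, against 86.4 at the lowest, 106 at the median and 143 at the highest in untreated APP/PS1 mice. Treated male 2 and male 3 lay within the untreated range and the other 3 below it. For 9 of 9 members the groups overlapped, while 0.155% of genes had every treated library below every untreated one.

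Gbp2 had 75.7, 95.8, 42.6, 46.1 and 47.0 in treated APP/PS1 mice, against 51.9, 78.3 and 168 in untreated APP/PS1 mice (log2 difference -0.40 ± 0.28, limma adjusted p = 0.997). The 3 treated males were below every untreated library and the 2 treated females were not. Gbp7 differed least, at -0.10 (95% interval -0.56 to 0.36), and Irgm2 most, at -0.57 (-1.42 to 0.27). Without APP/PS1 female 3 the median was -0.37, and Gbp7, Gbp3 and Irgm1 were at 0.0045, -0.0048 and -0.03. Choroid plexus markers had the opposite sign, 9 of 9 higher in treated mice with a median log2 difference of 2.57, 7 of them at an unadjusted p under 0.05. Their summed level was 62.1 to 3929 CPM in treated and 17.8 to 59.4 CPM in untreated APP/PS1 libraries. Microglia and astrocyte markers had the sign of the members, with 11 of 12 and 8 of 8 lower in treated mice. Their median log2 differences were -0.21 and -0.15, and 0 and 1 of them were lower at an unadjusted limma p under 0.05. Endothelial markers were lower for 6 of 9 genes (median -0.06). The part of these marker lists in the GTPase result was not tested. The library at 3929 CPM, treated female 1, was the highest of its group for 0 of 9 members and the lowest for 2.

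Tests of the difference between effects called 0 members. Limma called 0% of 15990 genes for the difference between treatment effects, and 7 of 16300 genes (0.0429%), or 6 (0.0368%) without old male 1, for that between age and transgene. The effect of treatment was more negative in old than in APP/PS1 mice by a median of -0.39 over the members on the log2 scale, and by -0.01 without old male 1; 0 members had an unadjusted p under 0.05 in either setting (4.35% and 3.80% of genes did). Gbp3 differed by -0.85 (95% interval -1.81 to 0.11; limma adjusted p = 0.918). The age effect exceeded the transgene effect by a median of 0.95. For Gbp3, Gbp9 and Iigp1 the unadjusted p was under 0.05, a level reached by 11.8% of genes, and limma's adjusted p was 0.410, 0.369 and 0.421. Without old male 1 the median difference was 0.53 and 0 members reached that level (10.2% of genes did).

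Upstream of the GTPases, the ligand genes were close to absent: of 9 interferon genes, Ifng had 15 reads in 35 libraries, Ifne 8, Ifnk 4, Ifnb1 3, Ifnl2 2, Ifnl3 2, and Ifna1, Ifna2 and Ifna4 0. None reached the level needed for a test. Log2 differences of the receptor and kinase genes were near 0. In old over young mice 3 of 7 were positive and 0 had an unadjusted p under 0.05, with log2 differences of -0.06 for Ifngr1, 0.12 for Ifngr2, -0.06 for Jak1 and -0.05 for Jak2. In treated over untreated old mice Jak2 was at 0.22 ± 0.10 (limma adjusted p = 0.678), opposite in sign to the GTPases.

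Limma called none of the transcription factors in the aging arm. In old over young mice 10 of 10 were positive and 6 had an unadjusted p under 0.05. Batf2 among the 10 reached the average needed for a test only through the old libraries (114 reads, against 39 in young). Irf7, the factor that amplifies type I interferon responses, was at 1.65 ± 0.35 on the log2 scale (SE; limma adjusted p = 0.239), Nlrc5 at 1.46 ± 0.53 (0.669), Irf8 at 0.54 ± 0.16 (0.536) and Irf1 at 0.47 ± 0.33 (0.864). DESeq2 called Irf7 and Nlrc5 among these (adjusted p = 8.37e-05 and 0.0410), and 1 of the 10 factors without old male 1. In that setting Irf7 was at 1.61, Nlrc5 at 0.94 and Irf1 at 0.12. In treated over untreated old mice Irf7 was at -1.43 ± 0.41 and Nlrc5 at -1.27 ± 0.60 (limma adjusted p = 0.678 each), and at -1.35 and -0.76 without old male 1. Of the 10 factors 8 were negative and 2 positive there, with 4 lower and 1 higher at an unadjusted p under 0.05, and 1 lower and 0 higher without old male 1. In the transgenic arm 4 of the 9 factors measured were positive and 5 negative in APP/PS1 over littermate mice (median log2 difference -0.01). In treated over untreated APP/PS1 mice 2 were positive and 7 negative (median -0.08). Irf8 was at 0.21 and -0.55 in these comparisons.

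Other genes of the families were on the same side in the aging arm. Of the other Gbp genes, 5 of 5 measured were higher in old than in young mice (median log2 difference 0.88). In treated old mice 5 of 5 were lower than in untreated old mice (median -1.06). Gbp8 and Gbp10 reached the average of 10 needed for a test only through the old libraries, with 121 and 357 reads there. They had 34 and 13 reads in young and 43 and 39 in treated old libraries, so the filter fixed their direction. Without old male 1, 3 of 3 measured were higher in old than in young mice. Gbp5, which promotes inflammasome assembly, was at 1.12 ± 0.34 in the first and -1.57 ± 0.42 in the second comparison (SE; limma adjusted p = 0.555 and 0.678). It was at 0.93 and -1.36 without old male 1, where 3 of the 4 other Gbp genes measured had lower values in treated mice. Gbp10, which matched the longest Gbp6 transcript at 98.5% of 1380 aligned bases, had 265 of its 468 reads in old male 1. Among the other Irg and Gvin genes, 9 of 10 were higher in old than in young mice and 9 of 11 lower in treated than in untreated old mice. Of these, Gm12185 and F830016B08Rik were tested only through the old libraries (113 and 116 reads). They had 28 and 20 reads in young and 22 and 33 in treated old libraries. Gm4951 was tested in this way in old over young mice (256 against 37 reads). Irgc1 was tested only through the treated old libraries in the second comparison (104 against 39 reads). Gvin1 was at 0.83 ± 0.19 and -0.84 ± 0.21 (limma adjusted p = 0.271 and 0.678), Ifi47 at 1.51 ± 0.38 and -1.0 ± 0.30, and Tgtp2 at 1.52 ± 0.50 and -1.53 ± 0.52. When old male 1 was left out, 7 of 8 of the Irg and Gvin genes were higher in old mice and 6 of 9 lower in treated old mice. In that setting Gvin1 was at 0.79 and -0.77, Ifi47 at 1.26 and -0.79 and Tgtp2 at 1.2 and -1.19. Gvin1 and Gm4070 had almost the same reads (2850 and 2824 in all). Both genes are in the counts given here, so nearly the same reads enter under both names.

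Antiviral genes of the type I response had a like size in the aging arm. In old over young mice 12 of 12 were positive and 10 had an unadjusted p under 0.05, with a median log2 difference of 1.15, and 1.07 without old male 1. Mx1 among the 12 reached the average needed for a test only through the old libraries (166 reads, against 48 in young). In treated over untreated old mice 12 of 12 were negative, with a median of -0.80, and -0.66 without old male 1. The members' medians in the same 2 settings were 1.18 and 0.70 for age, and -0.89 and -0.39 for treatment. Genes that act beside the GTPases, such as the autophagy conjugation factors that load them onto vacuoles, were flat, with medians of 0.05 and -0.01. The exception was Zbp1, a nucleic acid sensor, at 2.60 ± 0.65 in old over young and -2.43 ± 0.59 in treated over untreated old mice (limma adjusted p = 0.346 and 0.678), and DESeq2 called it in both (adjusted p = 0.0109 and 0.0344). Zbp1 had 378 reads in old libraries, against 61 in young and 54 in treated old libraries. It thus reached the average of 10 needed for a test mainly through the old libraries, which favours these directions. Zbp1 was at 2.33 and -1.99 without old male 1, where DESeq2 called 0 genes of the list in either comparison. Of 6 feedback regulators, 5 were positive in old over young mice (median log2 difference 0.39), 2 of them at an unadjusted limma p under 0.05. In treated over untreated old mice 4 were negative and 2 positive (median -0.05), with 0 at that level. Usp18 was at 1.35 ± 0.45 and -0.63 ± 0.48, and Socs1 at 0.36 ± 0.20 and -0.33 ± 0.32.

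After subtracting the mean of each group and sex from log2 of CPM + 0.5, the 36 pairs of members had a median Pearson r of 0.70 over 35 libraries (Spearman 0.48), and 0.44 without old male 1 (Spearman 0.39). These are descriptions given with no test, and genes read in the same library share its depth and RNA quality. Among the immunity-related pairs Igtp and Irgm2, which share exon bases, had the highest r over all groups, 0.85 with and 0.66 without old male 1, whereas within the aging arm without that library Irgm2 and Iigp1 did (0.83). Over all 36 pairs the highest was Gbp6 with Iigp1, at 0.89 and 0.81, and the lowest Gbp7 with Gbp9, at 0.26 and 0.12. Gbp9 followed the mean of the other members least (r = 0.46). Without old male 1, the pairs of the aging arm had a median r of 0.66 over 17 libraries, and those of the transgenic arm 0.23 over 17. The transgenic pairs ran from -0.36 for Gbp3 with Gbp9 to 0.85 for Gbp6 with Iigp1. Without APP/PS1 female 3, a setting chosen after seeing the data, their median was -0.0039 over 16 libraries, with a range of -0.49 to 0.95 for the same 2 pairs.

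The genes most like the members depended on old male 1 as well. Over 35 libraries 7 of the 8 genes with the highest Pearson r to the mean deviation of the members, among 15727, were Nlrc5 (0.91, Spearman 0.79), H2-Eb1 (0.82), Irf1 (0.82), Psmb8 (0.81), H2-Ab1 (0.81), B2m (0.79) and H2-K1 (0.78). Without old male 1 the leading 8 were Ifit1 (0.86, Spearman 0.81), Trim30a (0.85), Ifit3 (0.84), Oasl2 (0.83), Usp18 (0.83), Rtp4 (0.81), Irf9 (0.81) and Ifitm3 (0.79), and 0 of 8 were shared with the first set. The first set is made of antigen presentation genes and their regulators and the second of antiviral genes of the type I response. Over 35 libraries the Spearman values of H2-K1, H2-Ab1 and B2m were 0.87, 0.85 and 0.84. Within the aging arm without old male 1, both kinds were among the leading 8. These were Ifitm3 (Pearson r 0.96), Ifit1 (0.93), H2-L (0.92), B2m (0.92), Oasl2 (0.91), Isg20 (0.91), Uba7 (0.90) and H2-D1 (0.90). Of these 8, 1 was shared with the first set.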

How the data were processed

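Hippocampal polyadenylated RNA was sequenced, per the labels' protocols. The authors deposited normalised counts, a signal scaled separately in 4 tables with 12 libraries in each; 12 libraries recur in 2 tables with the same underlying reads. STAR, DESeq2 and mm10 are named in the submitters' processing notes. The sources used here give neither versions nor the counting step. Whole reads were recovered from the deposited counts (100% of values within 0.001 reads), and CPM computed from them. For treated APP/PS1 male 3 the header is 1 letter off its title, and no other column of that group remained.

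Each comparison was fitted within its table with limma 3.58.1 (R 4.3.3) on log2(normalised count + 1). Genes needed an average of 10 or more; the terms were sex and group, with the trend option. P-values were adjusted over all genes (Benjamini-Hochberg), with 0.05 as threshold. All 9 members passed the filter in each comparison. EdgeR 4.0.16 and DESeq2 1.42.0 on recovered reads were alternatives, next to another pseudocount (5), no filter, TMM scaling, library weights, no sex term, a replicate block and each library left out. Differences between effects came from joint limma fits of tables without shared libraries. Scripts were tested on simulated data. Transcripts were compared with BLAST+ 2.17.0. RefSeq promoter sequences (GRCm38.p6) were matched by symbol for 6 of 9 members.

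The members, gene lists and rules were chosen with earlier results of these data known. All 9 members are named in each comparison, and of other lists up to 4 genes with the smallest p plus fixed genes of the interferon gamma pathway. The 12 genes named beside the members in old male 1, and the lists without old male 1, were chosen after their values were seen. Genes named because they were tested only through a single group were also chosen in that way. A gene of the pathway lists is not reported here.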

Additional observations from a re-analysis of the deposited data

Results flagged for a closer look

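In each group of 5 or 6 libraries, the highest or lowest value was set against Dixon's 95% limit, which chance passes in about 1 of 20 groups. In these data 5.81 to 11.7% of all genes passed it, depending on the group. For the GTPases 5 of 54 sets of a gene and a group did. Gbp2 in old male 1 had 1514 normalised counts, with the next old library at 329. Irgm2 in old male 1 had 1742, with the next at 345. Of all genes tested, 0.493% had old male 1 as such a high value. Gbp3 in APP/PS1 female 3 had 365, with the next APP/PS1 library at 170. Igtp in old nanoligomer female 2 was low, at 61.4, with the next treated old library at 155. Irgm1 in littermate female 1 was low, at 164, with the next littermate at 207.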

How the results depend on the processing

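The direction of each member held under each alternative in both aging comparisons. The median log2 difference in old over young mice was 1.18, and 1.43 with edgeR, 1.42 with DESeq2 and 0.96 with library weights. With a library left out in turn it ran from 0.70 (without old male 1) to 1.42 (without old male 2). DESeq2 called 3 members there, limma and edgeR 0. In APP/PS1 over littermate mice, library weights turned the sign of Gbp2 (-0.014), Gbp6 (-0.40), Gbp9 (0.061) and Iigp1 (-0.037). Leaving out a library there gave ranges of -0.0042 to 0.35 for Gbp2, -0.12 to 0.36 for Gbp6, -0.085 to 0.13 for Gbp9, -0.0089 to 0.31 for Irgm1, -0.060 to 0.24 for Igtp and -0.052 to 0.43 for Iigp1. In treated over untreated APP/PS1 mice Gbp7 ran from -0.22 to 0.048. With the shallow library kept, the median was -1.44, Gbp3 0.87 and Gbp7 0.85. The causes were not tested. Same-numbered libraries did not deviate together (r from -0.25 to 0.29), so the numbers are not taken as pairs. With a replicate block the medians were 1.18, -0.89, 0.18 and -0.37 in the 4 comparisons, the last against -0.48 without it, with Gbp7 at 0.0045 there against -0.10, and 0 members were called. The last values equal those without APP/PS1 female 3, whose numbered partner is the shallow library left out. Counts of genes called moved more: in old over young mice 6 with limma and 123 with DESeq2, and in APP/PS1 over littermate mice 8 with limma, 256 with DESeq2, 548 with library weights and 256 without APP/PS1 female 3.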

Other observations

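Gbp2b, the closest copy of Gbp2, had reads in every library of the transgenic arm and next to none in the aging arm. It had 313 reads in treated APP/PS1, 383 in APP/PS1 and 323 in littermate libraries, with lowest values of 0.850, 1.02 and 0.711 CPM. In the C57BL/6 arm it had 0 reads in treated old, 6 in old (all in old male 1) and 9 in young libraries. Gbp2 itself was read in both arms.

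The shallow library of treated APP/PS1 female 3 held Gbp3 at 597 CPM (545 reads) and Gbp7 at 540 CPM, 118-fold and 64.7-fold the highest of the other 5 libraries of its group. The other 7 members had 0 reads there, which allows a level of up to 3.28 CPM (3 reads, counting error only). In this library 49.9% of 15736 genes had 0 reads and 386 exceeded the other libraries more than 50-fold.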
